A study of Homo sapiens with 12 samples.

Results

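Paclitaxel at 0.0005 μM, the lowest of 4 doses, was compared with no drug in MDA-MB-231 cells embedded in Matrigel. The comparison holds 2 treated and 2 untreated samples, 4 of the 12 samples of the series, picked by their labels and all taken on day 4. MDA-MB-231 is a human triple negative breast cancer line, labelled here as wild type. The cells carried a nuclear green fluorescent protein introduced by histone transfection, and Matrigel is a basement membrane extract in which cells grow in 3 dimensions. According to the labels the drug was given on day 2, and the untreated samples of day 4 (C2) received none. The study's methods give a later day for the imaging experiment whose procedure was repeated for RNA, so the time under drug rests on the labels. The remaining groups, again 2 samples each, were untreated cells of day 2 (C1) and cells given 0.005, 0.05 or 0.5 μM Paclitaxel and taken on day 4. All groups share the line, the gel and a digestion with collagenase and dispase before lysis, so that the data describe 1 cell line without stroma. The methods describe more RNA-seq samples than these 12, and any others were not analysed here. The methods call the 2 samples of a group biological replicates, and the p-values given here measure the spread between such samples.

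Paclitaxel binds β-tubulin in the wall of the microtubule and stabilizes the polymer. In dividing cells this disturbs the mitotic spindle, and in all cells it shifts the balance between polymer and free tubulin, a pool to which cells are known to adjust their tubulin mRNA. Some regulators of genes of the kinds met below are known in general. AP-1 and NF-κB can switch on matrix metalloproteinase, cytokine and chemokine genes. Interferon regulatory factors bind the interferon-stimulated response element (ISRE), and heat shock factor 1 binds the heat shock element (HSE). The activity of these factors was not measured here.

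Gene counts summed to between 53851006 and 76146992 in the 4 samples and to between 38380629 and 79169121 in all 12. Values are CPM, counts set relative to a library size that TMM had scaled to the bulk of the genes, and CPM compare a gene between samples, not one gene with another. Of the 8 genes that mark MDA-MB-231 by high levels, the summed CPM lay at 4485 and 4174 in C2 and at 4299 and 4602 at 0.0005 μM, and none of the 8 was called (1 had an unadjusted p under 0.05, DESeq2 called 0, and 2 were lower in the fit of the 10 day 4 samples described below). Of 8 receptor and epithelial genes that the line is known to lack or hold low, ESR1 and GATA3 among them, 7 were tested, and they summed to 56.2 and 44.4 CPM in C2 and to 46.4 and 42.8 CPM at 0.0005 μM. The C1 replicates stood apart from each other, with a median absolute difference of 0.42 on the log2 scale over 11193 abundant genes, against 0.16 between the C2 samples and 0.13 between the 0.0005 μM samples. Identifiers without a symbol took 9.30% and 9.25% of the counts in C2 and 10.3% and 10.2% at 0.0005 μM, and their part in the results was not tested.

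Against untreated cells the lowest dose raised some genes of matrix breakdown, inflammation and interferon response, together with some histone and tubulin genes, while the NR4A genes and single genes of replication and recombination fell. SERPINB2, an inhibitor of plasminogen activators, went from 0.262 and 0.681 CPM in C2 to 28.4 and 28.2 CPM, a 60.8-fold rise (log2 fold change 5.93 ± 0.34 SE, edgeR adjusted p = 3.77e-06). Collagenase MMP1 went from 22.7 and 40.6 to 285 and 305 CPM, and the α-tubulin gene TUBA1A from 329 and 321 to 697 and 804 CPM. In the other direction the orphan nuclear receptor gene NR4A1 went from 168 and 93.9 to 39.2 and 30.6 CPM.

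The test behind these statements was edgeR's quasi-likelihood test, fitted to all 12 samples, with p-values adjusted after Benjamini and Hochberg over 25249 genes. A gene counts as called below an adjusted p of 0.05. It called 592 genes (2.34% of those tested), of which 471 were higher (1.87%) and 121 lower (0.479%) at 0.0005 μM, and 4280 genes had an unadjusted p under 0.05. The size of the changes differed by direction: 382 of the higher genes changed at least 2-fold and 101 at least 8-fold, while 46 of the lower genes changed at least 2-fold and 4 at least 4-fold. The median count level over all 12 samples, not corrected for length, was 1.68 CPM among the higher and 15 CPM among the lower genes, and 14 called genes had no count in either C2 sample. By type, 343 of the higher and 92 of the lower genes were protein-coding, from 14804 tested, 29 and 5 were long noncoding, 18 and 5 were pseudogenes, and 77 and 17 had no symbol. In 13380 genes (53%) both 0.0005 μM samples lay on the same side of both C2 samples, and all 592 called genes were among these, so that an absence of overlap adds nothing to a call.

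**Figure D1:**
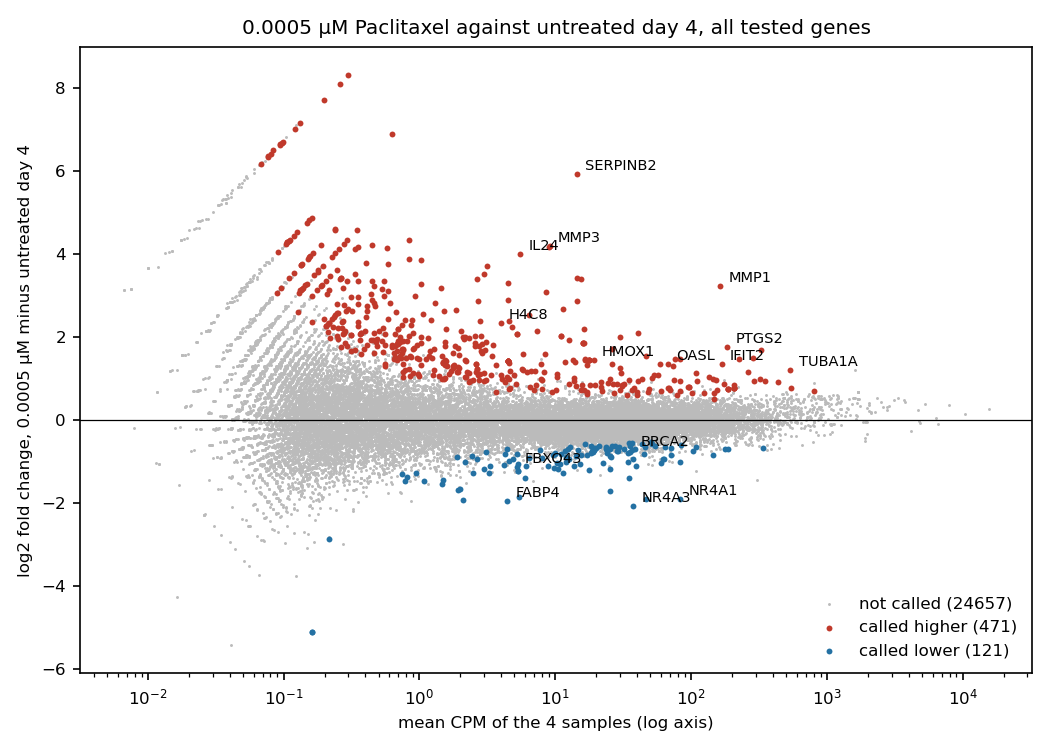
Log2 fold change of 0.0005 μM Paclitaxel against untreated day 4 (vertical axis) by mean CPM of the 4 samples (horizontal axis, log scale) for the 25249 tested genes, with called genes in red (471 higher) and blue (121 lower). Large rises, such as the 60.8-fold one of SERPINB2, outnumber large falls, such as the 4.20-fold one of NR4A3.

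The number of genes that passed differed with the samples in the fit, and with them the shared estimate of the spread, the genes kept and the normalization. With the 10 samples of day 4 alone the count was 2576, with 1431 higher and 1145 lower, and leaving out C1 replicate 1 or 2 gave 2472 and 2552. Leaving out a library of the comparison gave 144 (C2 replicate 1), 248 (C2 replicate 2), 189 (0.0005 μM replicate 1) and 164 (0.0005 μM replicate 2). For many gene groups below, counts with day 4 alone and with single libraries left out stand beside those of all 12 samples. The fit of day 4 alone tested 25109 genes, and its list counts are to be read beside its 1431 higher and 1145 lower calls. Single libraries were left out of the fit of all 12 samples only, so those counts compare with that fit and not with day 4 alone.

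Matrix proteases were among the largest rises. The stromelysin MMP3 stood at 0.753 and 1.14 CPM in C2 and at 15.7 and 18.7 CPM at 0.0005 μM, an 18.2-fold rise (log2 fold change 4.19 ± 0.23 SE, edgeR adjusted p = 3.14e-06). The collagenase MMP13 went from 2.05 and 2.87 to 26.2 and 26.7 CPM, a 10.8-fold rise (log2 3.43 ± 0.19 SE, edgeR adjusted p = 3.14e-06). For MMP1 (ENSG00000196611) the rise was 9.34-fold (log2 3.22 ± 0.30 SE, edgeR adjusted p = 0.000158). As in all genes called higher, both treated samples of these 3 lay above both untreated ones, which adds nothing to the calls. The replicates of the treated group were close to each other.

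These genes are neighbours. On GRCh37 the metalloproteinase cluster spans chr11:102391239-102826461, and 5 of its 9 listed genes passed the filter on low counts: MMP10, MMP1, MMP3, MMP12 and MMP13. Each of the 5 was called higher. MMP10, a stromelysin, went from 1.47 and 4.67 to 18 and 21.3 CPM (log2 2.69 ± 0.45 SE, edgeR adjusted p = 0.00821), and MMP12, the macrophage elastase, went from 0 and 0.0184 to 0.213 and 0.204 CPM, a handful of counts per library. A second run of neighbours held SERPINB2. Of 6 tested genes in the SERPINB cluster at chr18:61144191-61687013, 4 were called higher, namely SERPINB5, SERPINB7, SERPINB2 and SERPINB4. SERPINB7 went from 0.246 and 0.313 to 1.33 and 1.65 CPM, and SERPINB4 from no count in either C2 sample to 0.585 and 0.612 CPM. MMP12, SERPINB4 and SERPINB5, with almost no count in C2, passed the filter through other samples, and cluster members without counts were not tested. The shares of called genes are therefore not read as a rise of a whole cluster. Both clusters were picked after these values had been seen.

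In the wider list of matrix proteases and their inhibitors, 7 of 37 tested members were called higher and 1 lower, and the median log2 fold change was 0.07 against -0.01 over all tested genes. The called fall was that of TIMP4, a tissue inhibitor of metalloproteinases, from 39.1 and 21.7 to 15.1 and 14.4 CPM (log2 -1.04 ± 0.23 SE, edgeR adjusted p = 0.0382). With day 4 alone the list had 9 members higher and 5 lower, and with 1 library of the comparison left out it had 4 to 6 higher, the fewest without C2 replicate 1 and without 0.0005 μM replicate 2. The call of TIMP4 was lost without C2 replicate 1 and without either 0.0005 μM replicate.

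Many cytokine and chemokine genes rose. Of 38 tested members of the NF-κB, cytokine and chemokine list, 18 were called higher and 0 lower, and the median log2 fold change was 0.82. In the fit of day 4 alone 23 were higher and 1 lower, and with single libraries left out the count of higher members ran from 13 (without C2 replicate 1) to 23. IL1B, the secreted interleukin 1β, went from 12.3 and 18.5 to 62.2 and 69.8 CPM (4.28-fold, log2 2.10 ± 0.21 SE, edgeR adjusted p = 0.00027). IL24, a cytokine of the interleukin 10 family, went from 0.769 and 0.515 to 10.3 and 10.4 CPM, with the caveat that FCMR lies on the opposite strand and that the strand setting of the counting is not given in the sources used here. PTGS2, the inducible cyclooxygenase, went from 72.6 and 95.1 to 289 and 281 CPM (3.40-fold, edgeR adjusted p = 0.000179).

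Chemokine, adhesion and growth factor genes were called in the same direction. CCL20, the ligand of CCR6, went from 1.88 and 3.51 to 28.6 and 28.2 CPM (10.6-fold, edgeR adjusted p = 0.000511). The adhesion molecule ICAM1 went from 44.3 and 43.9 to 129 and 116 CPM, and the granulocyte growth factor CSF3 from 0.311 and 0.607 to 4.96 and 4.73 CPM. IL32 went from 9.74 and 14.1 to 50.5 and 45.3 CPM. The neutrophil chemokine CXCL8 stood at 817 and 1122 CPM in C2 and 2375 and 2135 CPM at 0.0005 μM, yet it did not pass (log2 1.22 ± 0.44 SE, edgeR adjusted p = 0.183). In its cluster at chr4:74606236-74964913, 3 of 6 tested genes were called higher, CXCL1, CXCL3 and CXCL5, and in the interleukin 1 cluster at chr2:113531502-113891593 IL1A and IL1B were called of 4 tested. CXCL5, with almost no count in C2, passed the filter through other samples. CXCL1, CXCL2 and CXCL3 are close paralogs, and how reads were shared among them is not known.

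The rest of the 15 largest rises were genes of several kinds. Complement C3 went from 0.344 and 0.626 to 6.59 and 4.42 CPM, serum amyloid SAA1 from 1.03 and 1.09 to 7.43 and 8.38 CPM, and the complement protease gene C1S from 1.24 and 1.69 to 7.63 and 7.75 CPM. INHBA, the activin subunit βA, went from 3.45 and 3.61 to 23.3 and 27.9 CPM (7.25-fold, edgeR adjusted p = 6.35e-06) and was the only called member of 32 tested TGF-β pathway and response genes (5 higher and 2 lower with day 4 alone). IL1RL1, the receptor of interleukin 33, went from 0.606 and 1.07 to 7.35 and 8.96 CPM, and the nicotinamide N-methyltransferase gene NNMT from 0.491 and 0.386 to 5.24 and 6.36 CPM. The dehydrogenase gene DHRS2 (8.49-fold) and the calcium binding protein gene S100P (5.82-fold) complete the list. C1S shares its locus with LPCAT3 on the other strand, and SAA1 has close paralogs.

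Interferon-stimulated genes formed the other large group. Of 44 tested members 17 were called higher and 0 lower, 42 had a positive log2 fold change and the median was 0.62. With day 4 alone 30 were called higher, and with 1 library of the comparison left out 6 (C2 replicate 1), 7 (C2 replicate 2), 9 (0.0005 μM replicate 1) and 7 (0.0005 μM replicate 2). OASL, a relative of the oligoadenylate synthetases, went from 41.3 and 35.0 to 97.8 and 97.2 CPM (2.56-fold, log2 1.35 ± 0.15 SE, edgeR adjusted p = 0.000514). IFIT2, which binds viral RNA, went from 101 and 87.2 to 234 and 250 CPM (2.56-fold, edgeR adjusted p = 0.000722). OAS2, which makes the activator of RNase L, went from 7.61 and 6.95 to 18 and 21.8 CPM. As in all genes called higher, both treated samples of these 3 lay above both untreated ones, which adds nothing to the calls.

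Larger ratios were found for IFI27, which went from 0.524 and 0.791 to 4.69 and 4.81 CPM (7.25-fold, edgeR adjusted p = 0.000179), and for the antiviral enzyme gene RSAD2, which went from 1.06 and 0.957 to 4.12 and 4.11 CPM (4.07-fold, edgeR adjusted p = 0.000981). MX1, a dynamin-like antiviral GTPase, went from 3.90 and 4.19 to 8.85 and 9.57 CPM. In the IFIT cluster at chr10:91043451-91181362, IFIT2 and IFIT3 were called of 4 tested genes, and both overlap LIPA on the other strand.

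Promoter sequence was read for protease, cytokine, interferon-stimulated and heat shock genes, lists of which only some members were called. RefSeq windows of the 250 bases before an annotated start, on GRCh38.p14, could be matched by symbol to 13291 tested genes, and a gene with several starts counted as holding a motif when any of its windows did. The motifs, searched on both strands, were TGANTCA for AP-1, GGG and TTTCC with any 2 bases between them for NF-κB, a pair of GAAA with any 2 bases between them for the ISRE, and GAANNTTC or TTCNNGAA for the HSE, and they were chosen with the results known. Among all 35116 windows they occurred in 6.57%, 1.73%, 3.02% and 11.6%. The windows below show where the motif of their group lies in genes picked by hand, all of which hold it. Its letters are in capitals, 5′ to 3′ on the strand of the gene. Apart from IFI6, whose values are not given here, these genes rose at 0.0005 μM or were higher there than at the higher doses. No window was matched for MMP1, MMP3, MMP13, OASL or IFIT2. SERPINB2 and MMP10 are shown for AP-1:
SERPINB2, chr18:63887455-63887704, + strand: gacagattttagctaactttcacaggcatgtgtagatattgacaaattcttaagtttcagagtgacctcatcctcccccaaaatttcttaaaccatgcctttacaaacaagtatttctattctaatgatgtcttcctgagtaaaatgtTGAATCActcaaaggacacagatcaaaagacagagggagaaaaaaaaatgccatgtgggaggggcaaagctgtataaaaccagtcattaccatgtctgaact
MMP10, chr11:102780629-102780878, - strand: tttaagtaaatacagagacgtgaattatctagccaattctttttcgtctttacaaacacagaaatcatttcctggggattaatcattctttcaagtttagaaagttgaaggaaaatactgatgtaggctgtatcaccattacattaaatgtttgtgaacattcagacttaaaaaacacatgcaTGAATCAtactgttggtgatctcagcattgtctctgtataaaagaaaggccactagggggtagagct
CXCL1 and CCL20 are shown for NF-κB:
CXCL1, chr4:73869143-73869392, + strand: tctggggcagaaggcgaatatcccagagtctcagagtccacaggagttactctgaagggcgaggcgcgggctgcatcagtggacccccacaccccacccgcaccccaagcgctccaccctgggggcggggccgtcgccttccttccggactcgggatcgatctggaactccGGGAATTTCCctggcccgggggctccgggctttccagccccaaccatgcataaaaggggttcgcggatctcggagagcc
CCL20, chr2:227813592-227813841, + strand: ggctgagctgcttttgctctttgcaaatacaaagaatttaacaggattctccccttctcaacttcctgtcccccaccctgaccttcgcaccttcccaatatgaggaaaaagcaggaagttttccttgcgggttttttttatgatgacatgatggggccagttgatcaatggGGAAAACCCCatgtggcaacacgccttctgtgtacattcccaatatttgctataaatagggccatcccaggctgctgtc
ISG15 and IFI6 are shown for the ISRE:
ISG15, chr1:1013247-1013496, + strand: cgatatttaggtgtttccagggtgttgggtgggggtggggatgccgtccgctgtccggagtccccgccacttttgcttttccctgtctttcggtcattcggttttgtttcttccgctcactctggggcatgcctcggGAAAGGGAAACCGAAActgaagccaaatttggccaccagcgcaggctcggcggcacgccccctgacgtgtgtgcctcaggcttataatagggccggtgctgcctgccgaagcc
IFI6, chr1:27672193-27672442, - strand: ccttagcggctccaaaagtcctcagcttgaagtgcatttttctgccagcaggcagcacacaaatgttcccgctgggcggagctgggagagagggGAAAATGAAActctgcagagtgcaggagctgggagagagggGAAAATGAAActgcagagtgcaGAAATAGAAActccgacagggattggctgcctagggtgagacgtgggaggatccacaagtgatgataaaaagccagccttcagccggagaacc
HSPA6 and HSPA1B are shown for the HSE:
HSPA6, chr1:161524290-161524539, + strand: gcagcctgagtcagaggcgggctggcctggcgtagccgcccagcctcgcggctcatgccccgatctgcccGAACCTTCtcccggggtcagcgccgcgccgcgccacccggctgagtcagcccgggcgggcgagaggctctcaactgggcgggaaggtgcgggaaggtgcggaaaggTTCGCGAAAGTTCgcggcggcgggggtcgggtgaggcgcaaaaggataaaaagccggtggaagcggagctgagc
HSPA1B, chr6:31827488-31827737, + strand: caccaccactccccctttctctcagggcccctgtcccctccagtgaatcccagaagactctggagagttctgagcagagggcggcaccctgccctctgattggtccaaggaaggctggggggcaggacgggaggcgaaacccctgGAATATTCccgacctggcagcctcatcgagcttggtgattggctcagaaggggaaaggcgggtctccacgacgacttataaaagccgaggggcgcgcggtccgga
The AP-1 letters begin 102 bases before the start in SERPINB2 and 67 bases before it in MMP10, and the NF-κB letters begin 79 bases before it in both CXCL1 and CCL20. ISG15 holds 2 ISRE matches that overlap by 4 bases, and IFI6 holds 3. HSPA6 holds 3 HSE matches, the pair nearest the start overlapping, plus 2 AP-1 matches that are not capitalized, and MMP10 holds 1 HSE match of the same kind.

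Among the called genes with a window the shares differed by motif and direction. AP-1 letters stood in 48 of 263 genes called higher (18.3%), in 8 of 77 called lower (10.4%) and in 920 of 13291 tested genes (6.92%). NF-κB letters stood in 7.22% of the higher, 2.60% of the lower and 2.55% of the tested genes, and ISRE letters in 10.6%, 2.60% and 3.45%. HSE letters stood in 17.1% of the higher, 18.2% of the lower and 12.1% of the tested genes. Of 14 called interferon-stimulated genes with a window, 13 held an ISRE match, against 24 of the 34 tested members, and of 14 called cytokine genes 6 held an NF-κB match, against 15 of 30 tested. These are counts of letters in a fixed window, and no test was made of them.

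**Figure D2:**
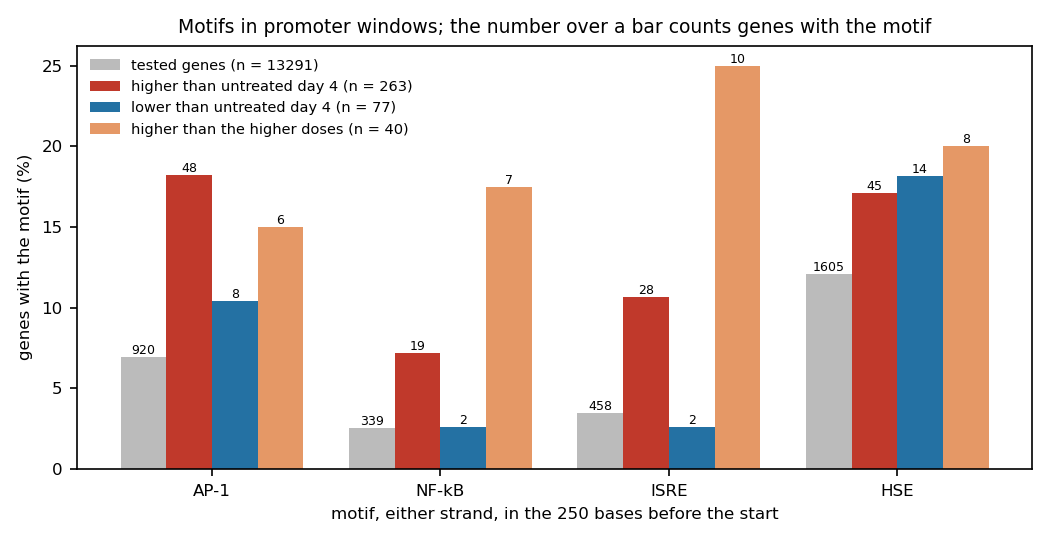
Share of genes (vertical axis, percent) with each motif in the 250 bases before a start, for all tested genes (grey), genes higher (red) or lower (blue) at 0.0005 μM than in untreated day 4 samples, and genes higher at 0.0005 μM than at the higher doses (orange), with the number of genes over each bar. AP-1, NF-κB and ISRE letters are more frequent among higher than among lower or all genes, and HSE letters are similar in both directions.

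Histone genes were called in 1 direction. The list held 114 names, older and current ones of the same genes, of which 27 matched the table and 20 were tested. Of the 20 7 were called higher and 0 lower, 19 had a positive log2 fold change, and the median was 0.81. There were 13 higher with day 4 alone, and with 1 library of the comparison left out 5 to 7. H4C8 went from 1.39 and 1.23 to 6.02 and 7.23 CPM (5.03-fold, log2 2.33 ± 0.20 SE, edgeR adjusted p = 9.75e-05), H4C14 from 1.70 and 2.34 to 8.39 and 8.50 CPM, and the linker histone gene H1-2 from 23.2 and 24.7 to 60.7 and 78.5 CPM (2.91-fold, edgeR adjusted p = 0.00118). Replication-dependent histone mRNA normally lacks a poly(A) tail, the library selection is not given in the sources used here, histone copies are near-identical, and all cells carried the histone transgene, so that the level of a single histone gene is uncertain.

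Tubulin genes, the family of the drug's target, were raised in part. Of 17 tested, 4 were called higher and 0 lower with a median of 0.52, and 10 were higher with day 4 alone, while the count was 1 when any 1 library of the comparison was left out. TUBA1A rose 2.31-fold (log2 1.21 ± 0.16 SE, edgeR adjusted p = 0.00168), TUBB2A, a β-tubulin, went from 71.7 and 65.1 to 156 and 143 CPM (2.19-fold, edgeR adjusted p = 0.0108), and TUBB2B from 35.5 and 32.6 to 76.0 and 68.5 CPM. TUBB, the β-tubulin gene expressed in most cells, stood at 988 and 974 CPM in C2 and at 1195 and 1613 CPM at 0.0005 μM and did not pass (log2 0.52 ± 0.20 SE, edgeR adjusted p = 0.213), nor did TUBA1B at 389 and 404 against 559 and 674 CPM (log2 0.64 ± 0.15 SE, edgeR adjusted p = 0.0524). Tubulin paralogs are alike in sequence, and unique alignment can split their reads unevenly. Of 34 tubulin folding and microtubule binding genes only DCLK1 was called, at 0.835 and 1.12 CPM in C2 and 1.99 and 1.90 CPM at 0.0005 μM, a call lost when any 1 library of the comparison was left out (2 higher and 4 lower with day 4 alone).

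Stress genes rose in small numbers. HMOX1, heme oxygenase, went from 9.94 and 10.5 to 28.5 and 27.6 CPM (2.74-fold, edgeR adjusted p = 0.000484), and the ferritin heavy chain gene FTH1 from 219 and 208 to 417 and 432 CPM, among 5 called higher of 31 NRF2 and metallothionein genes (10 with day 4 alone, and 1 or 2 without a library of the comparison). DDIT3, the transcription factor CHOP, went from 9.48 and 14.9 to 37.5 and 42.4 CPM (3.28-fold, edgeR adjusted p = 0.00426), among 5 of 39 ER stress and amino acid response genes (12 with day 4 alone, 0 without C2 replicate 1, and 1 or 2 without another library of the comparison). GADD45A, a growth arrest gene, went from 37.6 and 34.9 to 75.9 and 79.2 CPM (2.14-fold, edgeR adjusted p = 0.00113) as the only called one of 27 p53 target genes (5 with day 4 alone), and this line is known to carry mutant p53. CDKN1A, the p21 gene, stood at 76.6 and 69.8 CPM in C2 and 103 and 107 CPM at 0.0005 μM (log2 0.52 ± 0.17 SE, edgeR adjusted p = 0.143). The proapoptotic PMAIP1 went from 97.6 and 98.4 to 194 and 194 CPM as the only called one of 23 apoptosis genes, a call that was lost when any 1 library of the comparison was left out (5 higher and 1 lower with day 4 alone).

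Genes of DNA replication had negative log2 fold changes almost throughout, though few passed. Of 45 S phase genes 44 had a negative log2 fold change, 3 were called lower and the median was -0.48. Those 3 calls were lost when any 1 library of the comparison was left out of the fit of all 12 samples. With day 4 alone 28 were called lower. FEN1, the flap endonuclease, went from 135 and 133 to 79 and 91.2 CPM (log2 -0.65 ± 0.15 SE, edgeR adjusted p = 0.044), CDC45 of the replicative helicase from 28.5 and 29.5 to 17.3 and 20 CPM, and the repressor gene E2F8 from 16 and 16.9 to 7.47 and 9.83 CPM. Of the 45 genes 30 had an unadjusted p under 0.05.

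Recombination genes showed the same direction, with 33 of 34 negative, 3 called lower and a median of -0.35. Those 3 calls were lost when any 1 library of the comparison was left out of the fit of all 12 samples. With day 4 alone 15 were called lower. BRCA2 went from 45.9 and 45.6 to 28.7 and 26.7 CPM (log2 -0.72 ± 0.13 SE, edgeR adjusted p = 0.0122), its partner helicase gene BRIP1 from 35.2 and 37.7 to 21.4 and 22.0 CPM, and RAD54L from 15.6 and 15.8 to 8.59 and 8.35 CPM. BRCA1 lay at 35.6 and 35.3 CPM in C2 and at 24.7 and 25.9 CPM at 0.0005 μM and did not pass (log2 -0.49 ± 0.13 SE, edgeR adjusted p = 0.0789).

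Mitotic genes gave few calls. Of 35 G2 and M phase genes 27 were negative and only ASPM, a spindle pole protein, was called lower, from 99.8 and 104 to 68.8 and 64.8 CPM, with a median of -0.29 for the list (9 called lower with day 4 alone, 0 when any 1 library of the comparison was left out). Cyclin B1 (CCNB1) stood at 146 and 161 CPM in C2 and 150 and 191 CPM at 0.0005 μM, CDK1 at 157 and 179 against 126 and 135 CPM, and MKI67 at 206 and 195 against 128 and 161 CPM, and none of the 3 passed (edgeR adjusted p = 0.727, 0.402 and 0.364). FBXO43, an inhibitor of the anaphase-promoting complex, went from 7.01 and 7.27 to 3.40 and 3.08 CPM (log2 -1.14 ± 0.15 SE, edgeR adjusted p = 0.0016) and was the only one of the 15 named falls that kept its call under all 23 alternative settings.

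The 3 NR4A receptor genes, known as rapid response genes, fell. NR4A3 went from 87.9 and 33.4 to 15.9 and 13 CPM (4.20-fold lower, edgeR adjusted p = 0.0234), NR4A2 from 101 and 46.4 to 20.8 and 18.6 CPM (3.74-fold lower, edgeR adjusted p = 0.0236), and NR4A1 was 3.76-fold lower (edgeR adjusted p = 0.029). Their C2 samples lay further apart than their treated samples, and without 0.0005 μM replicate 2 the adjusted p was 0.240, 0.227 and 0.271 for NR4A3, NR4A2 and NR4A1. Of 33 tested immediate early genes no other was called, and members went both ways: FOSB stood at 549 and 350 CPM in C2 and 200 and 131 CPM at 0.0005 μM (log2 -1.44 ± 0.35 SE, edgeR adjusted p = 0.0524), whereas EGR1 stood at 125 and 113 against 242 and 226 CPM (log2 0.97 ± 0.24 SE, edgeR adjusted p = 0.0595). DUSP1 stood at 651 and 431 against 373 and 311 CPM (edgeR adjusted p = 0.176). FOS at 99.8 and 86.4 against 83.3 and 74.6 CPM had a log2 fold change of -0.24. With day 4 alone, 5 immediate early genes were higher and 10 lower, and without C2 replicate 1 or either 0.0005 μM replicate 0 were called.

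Other falls among the 15 largest were those of the fatty acid binding protein gene FABP4, from 9.72 and 4.38 to 1.65 and 2.04 CPM, the small GTPase gene RAB17, from 51.6 and 26.4 to 13.4 and 10.6 CPM (3.26-fold lower, edgeR adjusted p = 0.00418), and the LIM domain gene FHL1, from 32.0 and 17.2 to 10.2 and 11.1 CPM. The calpain gene CAPN8, the myosin heavy chain gene MYH15, EML6 of the microtubule-associated EML family, RIPOR3 and the noncoding RNAs LINC00705 and MIR137HG were 2.15 to 3.59 times lower. LINC00705 lies opposite MANCR, and DDX12P and DDX12B, also lower, are near-identical helicase copies that cannot be told apart with certainty.

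Genes of cell shape and adhesion, the programmes by which cells move, gave few calls with all 12 samples. Of 61 actin and myosin genes 0 were called in the fit of all 12 samples (6 had an unadjusted p under 0.05, DESeq2 called 1 and the fit of day 4 alone 1 higher and 4 lower), with a median of -0.03. Over all 25109 genes tested with day 4 alone, 1431 were called higher and 1145 lower. Of 48 focal adhesion and integrin genes only NEDD9, a docking protein of adhesion signalling, was called, from 64.9 and 41.6 to 28.5 and 21.3 CPM (2.14-fold lower, edgeR adjusted p = 0.0207), and the median was -0.16. In the fit of day 4 alone 1 of them was higher and 5 lower, and the call of NEDD9 was lost without C2 replicate 1 and without either 0.0005 μM replicate. Of 23 YAP and SRF target genes 20 were negative with a median of -0.26 and FHL1 was the only call, and CCN2, a common YAP readout, had a log2 fold change of -0.60 (edgeR adjusted p = 0.342). The YAP and SRF median was -0.11 without C2 replicate 1 and -0.42 without C2 replicate 2. The call of FHL1 with all 12 samples was lost without C2 replicate 1 and without either 0.0005 μM replicate. With day 4 alone 5 were called lower. LOX, which crosslinks collagen, was the called one of 20 mesenchymal and EMT genes, from 73.7 and 84.9 to 124 and 126 CPM, while the mesenchymal filament gene VIM had a log2 fold change of 0.13 and SNAI1 of 0.63, and neither passed. With day 4 alone 4 of the 20 were higher and 1 lower, and 0 were called when any 1 library of the comparison was left out.

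Metabolic and translation genes gave few calls. Of 79 cytosolic ribosomal protein genes 78 were positive with a median of 0.46, none passed in the fit of all 12 samples and 9 were higher with day 4 alone, and their summed level was 50044 and 61860 CPM in C2 and 71538 and 82600 CPM at 0.0005 μM. At an unadjusted p under 0.05, 10 of the 79 passed, and DESeq2 called 2. Of 31 cholesterol and fatty acid synthesis genes 29 were negative with a median of -0.29, and HMGCS1, which makes the precursor of mevalonate, was called lower, from 405 and 430 to 262 and 265 CPM (1.58-fold lower, edgeR adjusted p = 0.0232). This list had 4 members lower with day 4 alone and 0 when any 1 library of the comparison was left out. Among 23 hypoxia genes 4 were called higher, LOX, DDIT4, ADM and STC2 (8 with day 4 alone, 0 without C2 replicate 1, 1 without any other library of the comparison), and among 23 glycolysis genes the glucose transporter gene SLC2A3 was called, from 58.9 and 54.3 to 95.5 and 124 CPM (2 with day 4 alone, 0 without either C2 replicate or 0.0005 μM replicate 2). The drug exporter gene ABCB1 stood at 0.164 and 0.276 against 0.306 and 0.391 CPM. In bulk samples a shift in the share of cells in a state and a shift in RNA per cell cannot be told apart.

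Markers of other cell types were mostly positive, with few calls. Of the tested markers, 6 of 7 for fibroblasts and 7 of 7 for leukocytes and endothelium had positive log2 fold changes, with medians of 0.76 and 0.88. Markers with almost no count in C2, such as FAP and ITGAM, passed the filter on low counts through other samples. This favours positive values among the tested markers, so these shares and medians are not read as a rise. The 7 tested fibroblast markers of 10 listed summed to 17.3 and 13.4 CPM in C2 and 18.6 and 14.8 CPM at 0.0005 μM, and the called ones, PDGFRA at 0.115 and 0.129 against 0.625 and 0.748 CPM and FAP at no count against 0.173 and 0.136 CPM, made up little of it, and both calls were lost when any 1 library of the comparison was left out. The 7 tested leukocyte and endothelial markers of 11 listed summed to 2.21 and 1.64 against 4.05 and 4.66 CPM, and the called ITGAM stood at 0.0164 and 0.092 against 0.718 and 0.782 CPM. PTPRC, carried by leukocytes in general, stood at 0.0819 and 0.129 against 0.213 and 0.204 CPM. The part of other cells in these values was not tested.

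**Figure D3:**
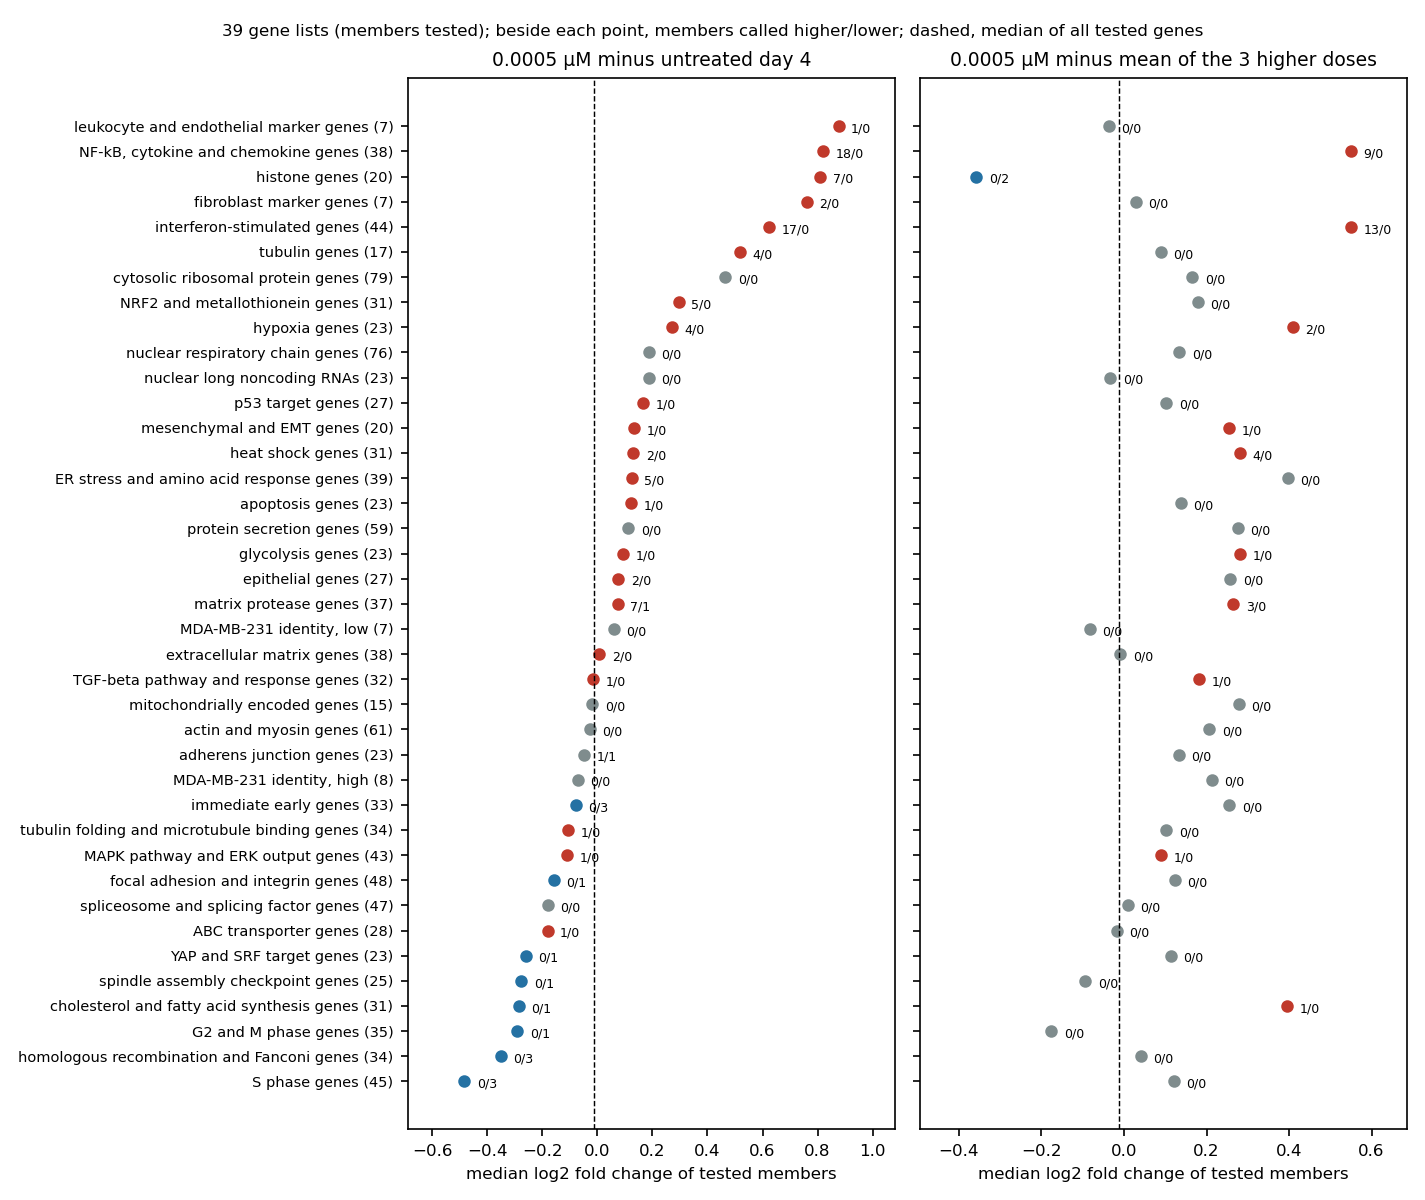
Median log2 fold change of the tested members (horizontal axes) of 39 gene lists, against untreated day 4 (left) and against the mean of the higher doses (right), with members tested in brackets and members called higher/lower beside each point. Red marks lists with more higher calls, blue lists with more lower calls and grey ties, and the dashed line is the median of all tested genes, -0.01 in both.

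What set 0.0005 μM apart from the other doses was tested directly, without the untreated samples in the difference. At 0.0005 μM 3 of 37 protease, 9 of 38 cytokine, 13 of 44 interferon-stimulated and 4 of 31 heat shock genes were called higher than at the mean of 0.005, 0.05 and 0.5 μM, and 2 linker histone genes were lower. Without 0.0005 μM replicate 2 these 4 counts were 1, 0, 1 and 1. The test called 74 genes (0.293%), 67 higher (0.265%) and 7 lower (0.0277%). In the fit of day 4 alone it called 1389 of 25109 genes, 868 higher and 521 lower, beside which the list counts of that fit are to be read. With no filter on low counts it called 907, of which most, 637, were lower and 270 higher. In 5878 genes (23.3%) both 0.0005 μM samples lay on the same side of all 6 samples of the higher doses. The count of 74 was 11 without 0.0005 μM replicate 1 and 3 without replicate 2, and it was 27 and 19 without replicate 1 or 2 of 0.005 μM, 51 and 32 without those of 0.05 μM, and 36 and 23 without those of 0.5 μM. The 3 genes named here that were called in all 22 alternatives were OASL, MMP13 and HSPA6.

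Against single doses the counts differed. Between 0.0005 and 0.005 μM 0 genes (0.0%) were called by edgeR and 0 by DESeq2, with 2614 at an unadjusted p under 0.05, and 6 called in the fit of day 4 alone. Against 0.05 μM 25 were called (0.099%), 19 higher (0.0753%) and 6 lower (0.0238%), and against 0.5 μM 104 (0.412%), 85 higher (0.337%) and 19 lower (0.0753%), and the lower calls against 0.5 μM were 0 when any 1 library of either dose was left out. These counts carry no order of the doses, since the 3 were 653, 309 and 895 with no filter and 2187, 183 and 1662 when only the samples compared were fitted. The direction turned as well. With no filter 34 were higher and 619 lower against 0.005 μM, 131 and 178 against 0.05 μM, and 333 and 562 against 0.5 μM. With only the samples compared these were 590 and 1597, 108 and 75, and 981 and 681. The absence of calls between the lowest doses does not show that they act alike, and for MMP1 the difference was 0.61 on the log2 scale (edgeR adjusted p = 0.478).

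**Figure D4:**
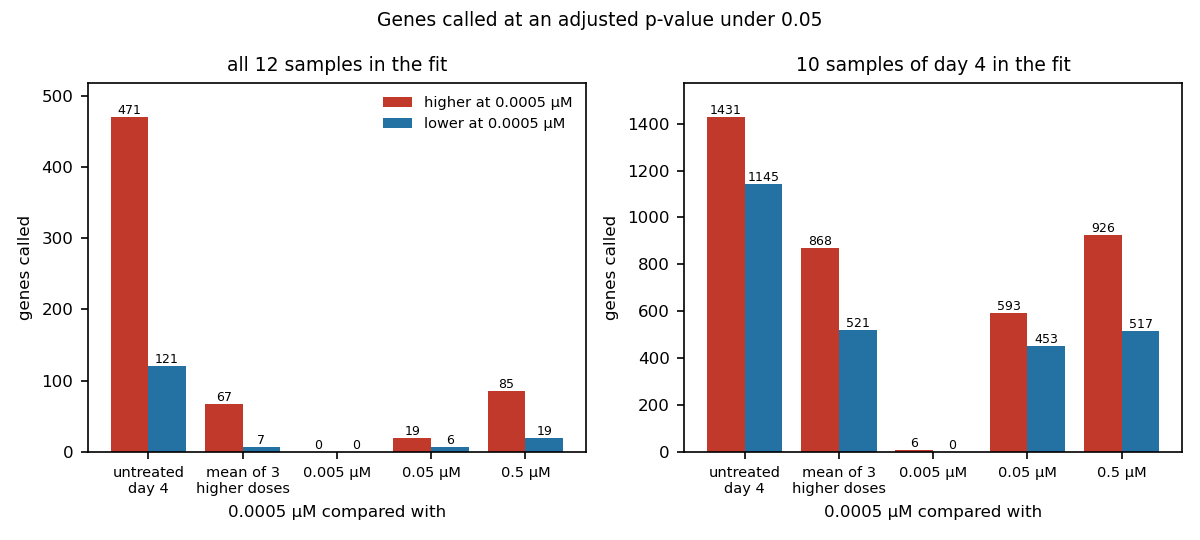
Number of genes called higher (red) and lower (blue) at 0.0005 μM (vertical axes, from 0) than in untreated day 4 samples, at the mean of the higher doses or at each higher dose, with all 12 samples in the fit (left) and with the 10 samples of day 4 (right). The scales of the panels differ, and the comparison with 0.005 μM has 0 calls on the left and 6 on the right.

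A few protease genes, MMP1, MMP3 and MMP13, were higher at 0.0005 μM than at the mean of the other doses. MMP1 had 183 and 202 CPM at 0.005 μM, 113 and 90.5 CPM at 0.05 μM and 70.1 and 69.7 CPM at 0.5 μM, all below the 285 and 305 CPM at 0.0005 μM, and the lowest dose exceeded the mean of the others by 1.41 ± 0.21 SE on the log2 scale (edgeR adjusted p = 0.0146). MMP13 had 15.4 and 15.2, then 7.96 and 7.32, then 6.05 and 5.92 CPM, for a difference of 1.57 ± 0.13 SE (edgeR adjusted p = 0.000397), and MMP3 had 11.8 and 10.8, then 7.18 and 6.45, then 3.56 and 3.33 CPM (1.42 ± 0.15 SE, edgeR adjusted p = 0.00198). At every dose all 3 genes lay above both C2 samples. SERPINB2 had 20 and 23.7, then 15.1 and 12.5, then 8.44 and 10.1 CPM and did not pass against the mean of the doses (1.01 ± 0.20 SE, edgeR adjusted p = 0.0705). In the protease list 3 of 37 members were called higher and 0 lower, 30 were positive and the median was 0.26, and with day 4 alone 14 were called, against 2 and 1 without 0.0005 μM replicate 1 and 2. Against single doses 0, 2 and 5 members were called higher, at 0.005, 0.05 and 0.5 μM.

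Some interferon-stimulated genes were higher at the lowest dose than at 0.05 and 0.5 μM. OASL had 63.0 and 62.2 CPM at 0.005 μM, 30.3 and 24.8 CPM at 0.05 μM and 24.9 and 24.5 CPM at 0.5 μM, so that at the upper doses it lay below both C2 samples, and the difference was 1.48 ± 0.11 SE (edgeR adjusted p = 0.000397). IFIT2 had 173 and 169, then 95.9 and 77.3, then 82.4 and 85.3 CPM (1.17 ± 0.12 SE, edgeR adjusted p = 0.00198). ISG15, a ubiquitin-like modifier, had 93.4 and 105 CPM at 0.0005 μM, 62.6 and 60.8 at 0.005 μM, 43.6 and 36.1 at 0.05 μM and 39.8 and 43.6 CPM at 0.5 μM, against 51.1 and 51.1 CPM in C2 (1.09 ± 0.12 SE, edgeR adjusted p = 0.00301). IFIT3 and OAS2 differed by 1.10 and 1.05. Of the 44 members 13 were called higher than at the mean of the doses, 10 higher than at 0.05 μM and 14 higher than at 0.5 μM, and the median difference was 0.55. With day 4 alone 34 were called, and without 0.0005 μM replicate 1 or 2 the count was 4 and 1. Over all genes, the calls against 0.05 μM, higher and lower together, numbered 1 without either 0.0005 μM replicate and 0 without 0.05 μM replicate 2. Those against 0.5 μM numbered 20 and 10 without 0.0005 μM replicate 1 and 2, and 7 and 6 without 0.5 μM replicate 1 and 2, so that the 10 and the 14 rest on single libraries too.

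Several cytokine genes were higher at 0.0005 μM too. IL1B had 36.1 and 38.4 CPM at 0.005 μM, 22.5 and 21.4 at 0.05 μM and 12.2 and 11.9 CPM at 0.5 μM, the last of these below both untreated values of 12.3 and 18.5 CPM, and the difference was 1.62 ± 0.15 SE (edgeR adjusted p = 0.00118). CCL20 had 17.5 and 17.8, then 9.68 and 9.75, then 4.70 and 6.79 CPM (1.51 ± 0.25 SE, edgeR adjusted p = 0.0327), and CXCL2 had 162 and 149 CPM at 0.0005 μM, then 103 and 95.0, 81.1 and 90.8, and 57.6 and 51.8 CPM (1.0 ± 0.17 SE, edgeR adjusted p = 0.0334). IL6 had 33.5 CPM in both samples at 0.0005 μM and 14 and 13.4 CPM at 0.5 μM, against 19.1 and 14.8 CPM in C2. Of 38 list members 9 were called higher, 35 were positive and the median was 0.55, and against 0.005, 0.05 and 0.5 μM alone 0, 1 and 12 were called higher. The count was 20 with day 4 alone, and 1 and 0 without 0.0005 μM replicate 1 and 2. IL24 and IL32 were not among the called members, with differences of 0.28 and 0.48.

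For heat shock genes the order was another: at 0.0005 μM the called members lay near their untreated level, and at the higher doses below it. HSPA1B, an inducible HSP70, had 118 and 123 CPM in C2, 111 and 97.2 at 0.0005 μM, 58.6 and 58.2 at 0.005 μM, 46.3 and 48.9 at 0.05 μM and 34.8 and 29.9 CPM at 0.5 μM, and the lowest dose exceeded the others by 1.21 ± 0.17 SE (edgeR adjusted p = 0.013). HSPA6, which is strictly inducible, had 5.55 and 6.83 CPM in C2, 8.49 and 6.46 at 0.0005 μM, 3.74 and 4.17 at 0.005 μM, 2.78 and 2.19 at 0.05 μM and 1.14 and 1.20 CPM at 0.5 μM (1.73 ± 0.15 SE, edgeR adjusted p = 0.000565). The cochaperone gene DNAJB1 had 370 and 342 CPM at 0.0005 μM and 193 and 164 CPM at 0.5 μM, with 398 and 382 CPM in C2. In the list 4 of 31 members were called higher, the 3 above and HSPA1A, and the median was 0.28 (7 called with day 4 alone, 1 without either 0.0005 μM replicate). Against 0.005, 0.05 and 0.5 μM alone 0, 1 and 4 members were called higher. HSPA1A and HSPA1B are near-identical, so their shares of reads are uncertain. All 4 called members held HSE letters in a promoter window, as did 18 of the 27 tested members with a window. Against C2 only HSPB8, a small heat shock protein gene, and DNAJA4 were called in this list, both higher.

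**Figure D5:**
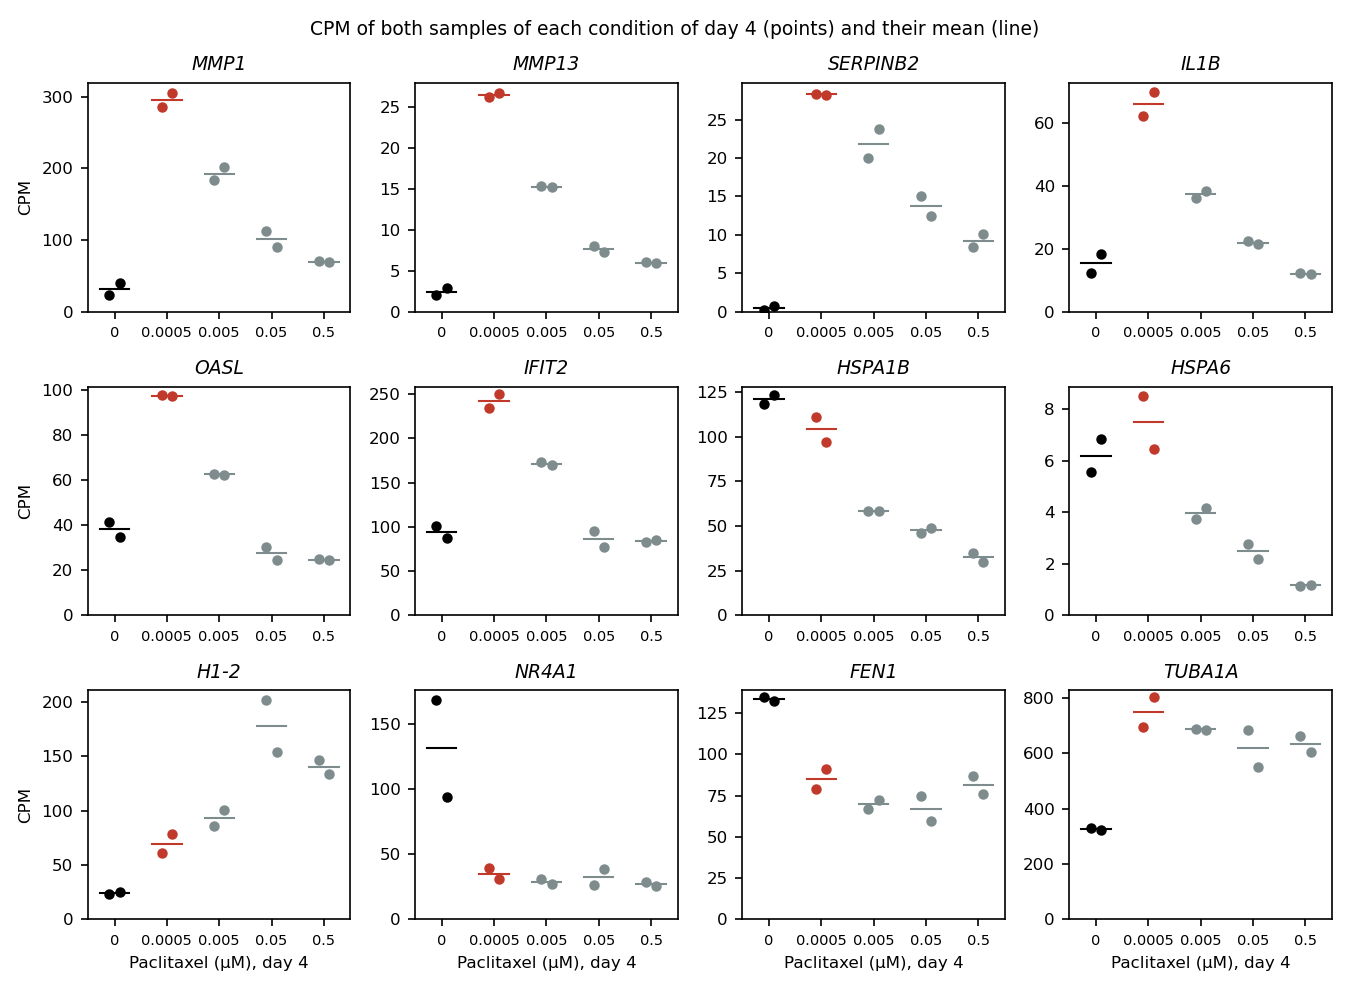
CPM (vertical axes, from 0) of 12 genes in both samples (points) of each condition of day 4 with their mean (line), by Paclitaxel dose in μM, with untreated in black and 0.0005 μM in red. MMP1, MMP13, SERPINB2, IL1B, OASL and IFIT2 peak at 0.0005 μM, HSPA1B and HSPA6 stay near the untreated level there and are lower above it, H1-2 is highest at 0.05 μM, and NR4A1, FEN1 and TUBA1A lie on the same side of the untreated samples at every dose.

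Linker histone genes went the other way. H1-2 had 60.7 and 78.5 CPM at 0.0005 μM, 86.1 and 100 at 0.005 μM, 202 and 154 at 0.05 μM and 147 and 134 CPM at 0.5 μM, and the lowest dose lay 0.93 ± 0.16 SE below the mean of the others on the log2 scale (edgeR adjusted p = 0.039). H1-4 had 2.46 and 3.37 CPM at 0.0005 μM, and 5.57 to 7.77 CPM at 0.05 and 0.5 μM (edgeR adjusted p = 0.0408). In the histone list 15 of 20 members were negative with a median of -0.36, and 7 were called lower with day 4 alone but 0 without either 0.0005 μM replicate. PIF1, a helicase gene, was the third named fall, with 11 and 10.4 CPM at 0.0005 μM against 13.8 and 14.7 CPM in C2 and 19.4 and 19.1 CPM at 0.5 μM (log2 -0.63 ± 0.11 SE, edgeR adjusted p = 0.0334).

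In several lists most members were positive against the mean of the higher doses, with few calls. Among the 11193 abundant genes as a whole, 7755 were positive in this comparison and the median was 0.09. Mitotic genes were mostly negative instead, 29 of 35 G2 and M phase genes (median -0.18) and 17 of 25 spindle assembly checkpoint genes (median -0.09). None of these was called, and 10 and 4 had an unadjusted p under 0.05. Against 0.005, 0.05 and 0.5 μM alone the G2 and M phase medians were 0.11, -0.18 and -0.45, and the checkpoint medians 0.08, -0.05 and -0.36. IGFBP3, a carrier of insulin-like growth factors, had 197 and 281 CPM in C2, 452 and 472 at 0.0005 μM and 198 and 177 CPM at 0.5 μM (1.03 ± 0.15 SE, edgeR adjusted p = 0.0137). Cholesterol synthesis genes had 29 of 31 members positive, a median of 0.40 and 1 call, MSMO1, a sterol demethylation enzyme gene, at 254 and 275 CPM against 155 and 130 CPM at 0.05 μM (edgeR adjusted p = 0.039). ER stress genes had 38 of 39 positive and a median of 0.40 with 0 calls (25 at an unadjusted p under 0.05, 18 by DESeq2), and protein secretion genes had 58 of 59 positive and a median of 0.28 with 0 calls (33 and 5). In the fit of day 4 alone these 3 lists had 15, 23 and 15 members called higher. The call of MSMO1 with all 12 samples was lost when any 1 library of day 4 was left out of that larger fit. Hypoxia genes had 2 of 23 called higher, LOX and NDRG1, with a median of 0.41 (16 with day 4 alone, 0 without either 0.0005 μM replicate).

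Tubulin, S phase and recombination genes gave few or no calls in this comparison. With all 12 samples none of the 17 tubulin, 45 S phase and 34 recombination genes was called against the mean of the higher doses by edgeR or DESeq2, 0, 3 and 3 had an unadjusted p under 0.05, 10, 38 and 19 were positive, and their medians were 0.09, 0.12 and 0.04. In the fit of day 4 alone 0, 1 and 1 were called higher, and with only the samples of the comparison 0, 2 and 1. TUBA1A had 688 and 686 CPM at 0.005 μM and 661 and 605 CPM at 0.5 μM, close to the 697 and 804 CPM at 0.0005 μM (difference 0.22 ± 0.13 SE, edgeR adjusted p = 0.42), and NR4A1 differed by 0.26 ± 0.32 SE. Against C2, the 3 higher doses had list medians for S phase genes of -0.67, -0.60 and -0.58 beside -0.48 at 0.0005 μM, and for interferon-stimulated genes of 0.35, -0.13 and -0.08 beside 0.62. These comparisons share the untreated samples, and the values are therefore set side by side only.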

How the data were processed

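RNA from MDA-MB-231 cells in Matrigel droplets was sequenced as pairs of 100 bases. The authors trimmed reads with Trimmomatic 0.39, checked them with FastQC 0.11.9, aligned them with STAR 2.7.5 to GRCh37 and counted unique alignments over exons with Rsubread. The deposited values are raw counts per gene (63568 identifiers) without normalization, and the count table equalled the 12 single-sample files. The strand setting, the annotation release and the library selection are not given in the sources used here. Samples were grouped by their labels. The 12 samples held 38380629 to 79169121 counts, with 2 samples a group, and an exact permutation test of 2 against 2 samples cannot give a p below 0.333.

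The counts were fitted with edgeR 4.0.16 (R 4.3.3) by the robust quasi-likelihood test on all 12 samples, with TMM normalization, the filterByExpr filter by group (25249 genes kept) and Benjamini-Hochberg adjustment over those genes, and called at an adjusted p under 0.05. Contrasts set 0.0005 μM against C2, against the mean of the 3 higher doses and against each of them. Named genes were the 15 largest rises and falls with a symbol, at least 5 CPM in the higher group and groups that do not overlap, plus up to 6 called members of each list and a fixed set of genes. Against the higher doses 18 genes were given by this rule for size, and genes with fewer counts, cluster members and some chemokines were chosen after their values were seen. The members of the comparison, the 39 gene lists and the motifs were compiled by hand with earlier results of these data known. Alternatives were RLE normalization, other filters, no robust estimation, a replicate block, fewer samples, C1 and C2 together, 1 identifier per set of same counts, GC and length offsets (88.2% of genes had both), DESeq2 1.42.0 and single libraries left out.

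Replicate numbers are shared by the labels of all groups. They were not taken to pair the samples, because the deviations of same-numbered samples correlated between -0.60 and 0.70 over 15 pairs of groups, and the labels name no shared batch or day. In 449 sets of identifiers (1128 in all) counts agreed within 1% in every sample, so such identifiers share their reads. Promoter windows come from RefSeq on GRCh38.p14, and cluster coordinates from GRCh37.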

Additional observations from a re-analysis of the deposited data

Results flagged for a closer look

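Differences between 0.0005 μM and other doses were tested directly with edgeR's quasi-likelihood test. Against the mean of the 3 higher doses 74 genes differed, among them OASL (1.48 higher on the log2 scale), MMP13 (1.57) and HSPA6 (1.73), and the 3 were called in all 22 alternatives. Against 0.05 μM alone 25 genes differed, and against 0.5 μM 104 did, whereas against 0.005 μM edgeR and DESeq2 called 0 (2614 at an unadjusted p under 0.05). HMOX1 was among those lower than at 0.5 μM, with 28.5 and 27.6 CPM at 0.0005 μM and 60.3 and 51.8 CPM at 0.5 μM (log2 difference -1.0, adjusted p = 0.0154), a call that was lost when any 1 of these 4 libraries was left out, as were all lower calls against 0.5 μM. The samples compared are 2 a dose, and the part of any single library in these counts is given under the processing below.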

How the results depend on the processing

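The counts of called genes depended on the samples in the fit and on the filter, given here in the order against C2, the mean of the higher doses, 0.005, 0.05 and 0.5 μM, with 592, 74, 0, 25 and 104 as reported. With no filter beyond 1 count in total they were 1480, 907, 653, 309 and 895, with day 4 alone 2576, 1389, 6, 1046 and 1443, and with only the samples of the comparison 2624, 1903, 2187, 183 and 1662. With GC and length offsets 1330, 305, 160 and 479 genes were called (0 against 0.005 μM), and with DESeq2 1072, 515, 272 and 505 (0 against 0.005 μM). A mean of at least 1 CPM gave 37 against the higher doses, and C1 and C2 together as control gave 1559. The share of higher calls against C2 was 79.6% as reported and 55.6% with day 4 alone, and against the higher doses 90.5%, 62.5% with day 4 alone and 29.8% with no filter. The cause of these shifts was not tested.

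Leaving out single libraries gave 144 to 2552, 3 to 1382, 0 to 10, 0 to 990 and 6 to 1412. The highest counts came without a C1 library. Against 0.05 μM the count was 0 without 0.05 μM replicate 2 and 1 without either 0.0005 μM replicate, and against 0.5 μM it was 20 and 10 without 0.0005 μM replicate 1 and 2, and 7 and 6 without 0.5 μM replicate 1 and 2. With the replicate number as a block the counts were 673, 87, 0, 36 and 124, and since the numbers were not shown to pair the samples this fit was not used. The correlation of same-numbered C2 and 0.0005 μM samples was 0.27.

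Of 30 genes named against C2 for the size of their change, 15 were called under all 23 alternatives and 0 changed direction. Of 18 named against the higher doses, 3 were called under all 22 and 0 changed direction. MMP10 lost its call in 3 settings, with only the samples of the comparison (adjusted p = 0.183), without C2 replicate 1 (0.0523) and without 0.0005 μM replicate 2 (0.0794).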
